A study of Canis lupus familiaris with 27 samples.

Results

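Of 27 canine simple mammary carcinomas hybridized singly to Affymetrix Canine Genome 2.0 arrays, the 9 with the highest and the 9 with the lowest combined level of GATA3 and FOXA1 were compared over all other measured genes. The tumors were chosen by a score, the mean of the GATA3 and FOXA1 log2 signals, each gene being read from its probe set of highest mean over the 27 tumors. The labels do not name these groups, so the levels of GATA3 and FOXA1 below are a description of how the tumors were selected and were not tested. GATA3 and FOXA1 were left out of every count of genes. The study collected primary tumors from dogs of various breeds to compare those with lymph node metastases at resection (13, called metastatic here) and without (14, non-metastatic), and every tumor was labelled negative for estrogen receptor alpha. The dogs were 9 to 13 years old in the high and 9 to 16 in the low group. Each array was 1 tumor of 1 dog, so the tumors are separate animals, numbered within each lymph node group in the order of deposition. The tissue was macrodissected and held more than 70% carcinoma cells by the labels, with stromal and immune cells making up the rest, and in such bulk RNA fewer cells of a type and less RNA per cell cannot be told apart.

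GATA3 is a zinc finger transcription factor that is required for luminal cells of the mammary gland to form and to stay differentiated. FOXA1 is a forkhead factor that opens chromatin for other regulators, among them the estrogen receptor. In the human breast both are typical of luminal, hormone-responsive cells, and low levels of both are typical of basal-like carcinomas.

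The score ran from 7.58 to 11.31 in the 9 high tumors (2 of them, non-metastatic 1 and 3, under 8), from 5.62 to 7.18 in the 9 middle tumors and from 3.04 to 5.55 in the 9 low tumors. GATA3 measured 10.18 to 13.28 in the high tumors and 3.33 to 8.57 in the low ones. FOXA1 measured 4.30 to 9.52 in the high tumors and 2.43 to 4.07 in the low ones. In 15 of the 27 tumors FOXA1 lay under 3.77, the median of the mean signals of all probe sets, so below the middle of the range the order of the tumors was set mainly by GATA3. At the upper threshold non-metastatic 1 (score 7.58) fell just inside the high group and non-metastatic 2 (7.18) just outside it. At the lower threshold metastatic 7 (5.55) fell just inside the low group and non-metastatic 8 (5.62) just outside it. Across the 27 tumors the Pearson correlation of GATA3 with FOXA1 was 0.753, with 0.282 over the 13 metastatic and 0.879 over the 14 non-metastatic tumors, all tumors having been normalized together.

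**Figure D1:**
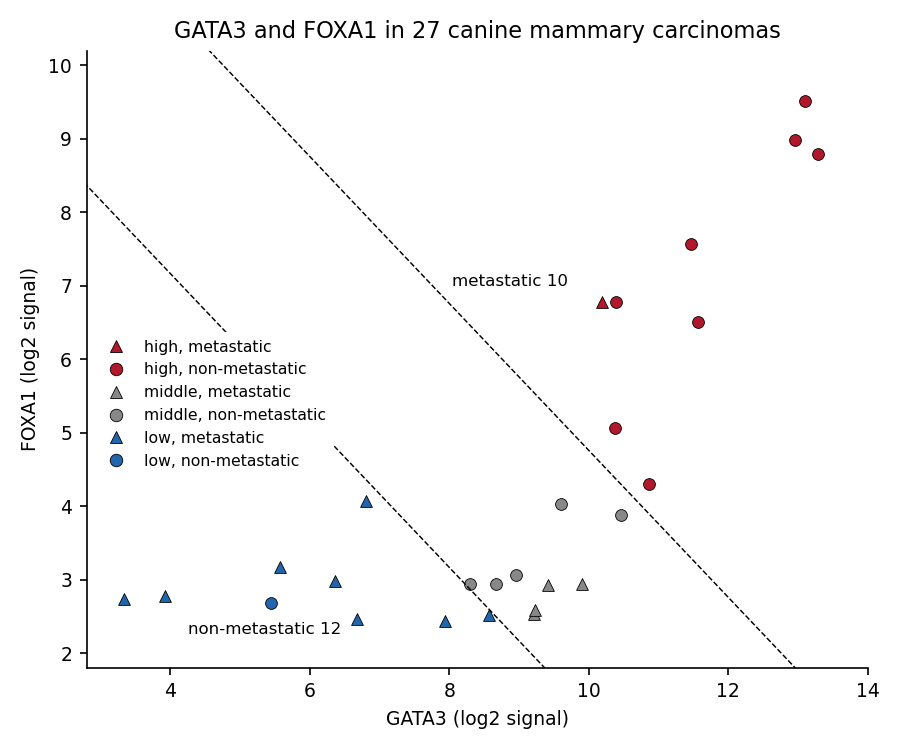
FOXA1 (y axis) against GATA3 (x axis), both as log2 signal, in 27 tumors, with triangles for metastatic and circles for non-metastatic tumors and colors for the high, middle and low tumors. The dashed lines join points of equal score midway between neighbouring groups. Among the high tumors 1 is metastatic (metastatic 10), and among the low tumors 1 is non-metastatic (non-metastatic 12).

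The score separated the tumors by lymph node status as well. Of the 9 high tumors 8 were non-metastatic and 1 metastatic, and of the 9 low tumors 1 was non-metastatic and 8 metastatic (Fisher's exact test, two-sided, p = 0.00337, adjusted p = 0.0236 over 7 tumor measures). The middle 9, which did not enter the main comparison, held 4 metastatic and 5 non-metastatic tumors. With lymph node status as a covariate, the fitted difference of a gene is then the mean of 2 differences, that of metastatic 10 from the 8 low metastatic tumors and that of the 8 high non-metastatic tumors from non-metastatic 12. Both tumors therefore decide the result more than any other tumor does, and in 21 of the 58 named genes called the 2 differences were over 1.5 times apart. The sign was the same in all 58, which selection on the mean of the 2 differences favors. Without metastatic 10 and non-metastatic 12 the score groups and lymph node status cannot be told apart.

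Non-metastatic 12 stood apart from the other 26 tumors in its cell type markers. The mean signal of 25 luminal epithelial surface genes was 5.23 in it against 6.15 to 9.60 in the others, the mean of 13 cartilage matrix genes 8.40 against 4.17 to 7.38, and the mean of 17 T and NK cell genes 8.09 against 3.83 to 7.65. Its means were also the lowest for luminal transcription factors (5.16 against 5.79 to 7.40) and milk and alveolar genes (5.81 against 6.34 to 10.08). The same held for ERBB receptors and their ligands (4.77 against 5.28 to 6.95). EPCAM, an adhesion protein of epithelial cells, had its lowest value of all 27 tumors in non-metastatic 12 (11.56), though still well above the array median. The range over the low tumors was 11.56 to 14.30 (median 13.98). Of the other luminal surface genes named below, KRT7, KRT18, CDH1 and TJP3 measured 4.22, 5.69, 3.81 and 3.15 in non-metastatic 12. KRT8 and ANPEP measured 8.99 and 9.08 in it. By the study's methods its dog was the one of the non-metastatic group in which lung metastases appeared later. Metastatic 10 had the lowest mean of the smooth muscle and myoepithelial genes in the high group, 7.67, and the lowest cartilage mean of all 27 tumors, 4.17. The smooth muscle mean was run as a covariate, with counts given below, and the part of the other means of this paragraph in the results was not tested.

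Of 15113 genes, 151 were higher and 50 lower in the high tumors at an adjusted p under 0.05 (limma, Benjamini-Hochberg over all genes), that is 0.999% and 0.331% of the genes tested. The differences of the 151 genes ranged from 0.32 to 10.29 (median 2.12) and those of the 50 genes from -0.59 to -5.77 (median -2.23) on the log2 scale. With array weights 0 genes were called in either direction (limma, 219 higher and 124 lower at an unadjusted p under 0.05), with the mean of the mitosis genes as a covariate 1 and 0, and without lymph node status 826 and 1072. The ranking by GATA3 alone gave 156 and 183, of which 32 and 13 were among the 151 and 50, and that by FOXA1 alone 101 and 17, of which 78 and 16 were. In all 201 genes both lymph node groups differed in the same direction. These genes were selected on the mean of the 2 differences, which favors a shared sign, so this is no separate evidence. The levels of the 9 high and the 9 low tumors did not overlap in 34 of the 151 and 39 of the 50 genes, against 67 (0.443%) higher and 117 (0.774%) lower among all genes tested. Such ranges, unlike the calls, are not adjusted for lymph node status. Without metastatic 10 the counts were 599 higher and 1282 lower, of which 110 and 33 were among the 151 and 50, and without non-metastatic 12 they were 201 and 38, of which 43 and 8 were. Either omission leaves a contrast with 1 tumor on one side, the 8 high non-metastatic tumors against non-metastatic 12 or metastatic 10 against the 8 low metastatic tumors, and the lone tumor is assumed to vary like the other groups. The calls said below to hold or to be lost without one of these tumors rest on that assumption. A fit of the score as a continuous value over all 27 tumors, again with lymph node status, called 445 genes (2.94%) with a rising and 161 (1.07%) with a falling level, including 109 of the 151 and 34 of the 50.

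The largest differences were those of HPX, PIP and ABCC11. On these arrays the median of all signals was 3.66, and signals of 2 or 3 are at the low end of the scale. HPX encodes hemopexin, the plasma protein that binds free heme. HPX measured 8.47 to 14.77 (median 13.24) in the high tumors and 2.82 to 6.96 (median 3.15) in the low tumors, and the groups did not overlap (difference 10.29 ± 1.28, SE, adjusted p = 0.00156). It was nearly the same within both lymph node groups, 10.53 in the metastatic and 10.06 in the non-metastatic tumors, and the 9 middle tumors lay between at a median of 9.33. The lowest of the high tumors was non-metastatic 1, at 8.47, which also had the lowest score of its group. All 4 probe sets of HPX gave this direction. ABCC11, an efflux pump of apocrine glands, measured 11.53 to 15.01 (median 13.88) against 2.22 to 8.27 (median 3.90), again without overlap (difference 9.98 ± 1.15, adjusted p = 0.00139). Leaving out any 1 of the 18 tumors left HPX and ABCC11 past the threshold, the largest adjusted p being 0.0068 and 0.00379.

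PIP, the prolactin-induced protein secreted by apocrine cells, was nearly constant in the high tumors at 14.11 to 15.44 (median 14.69) and spread over 2.75 to 11.23 (median 6.63) in the low ones (difference 10.27 ± 1.49, adjusted p = 0.00548). Without non-metastatic 12 its adjusted p was 0.0508. AZGP1, a secreted glycoprotein of the same cells, measured 11.47 to 14.05 (median 12.33) against 5.12 to 11.46 (median 9.54), a range that ended just below that of the high tumors (difference 4.70 ± 1.07, adjusted p = 0.0441). PIP and AZGP1 were the 2 genes called of the 12 measured apocrine genes (151 higher and 50 lower of all 15113), and both were also called with the continuous score. Of the 12 genes 10 had a difference above 0, against 6352 of all 15113. KLKB1, the zymogen of plasma kallikrein, was at the low end in the low tumors, 2.47 to 4.18 (median 3.49), and reached 5.20 to 12.07 (median 10.85) in the high ones (difference 6.99 ± 1.11, adjusted p = 0.0083). Non-metastatic 1 held the lowest of these high values at 5.20, and the next lowest high tumor lay above 10.

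**Figure D2:**
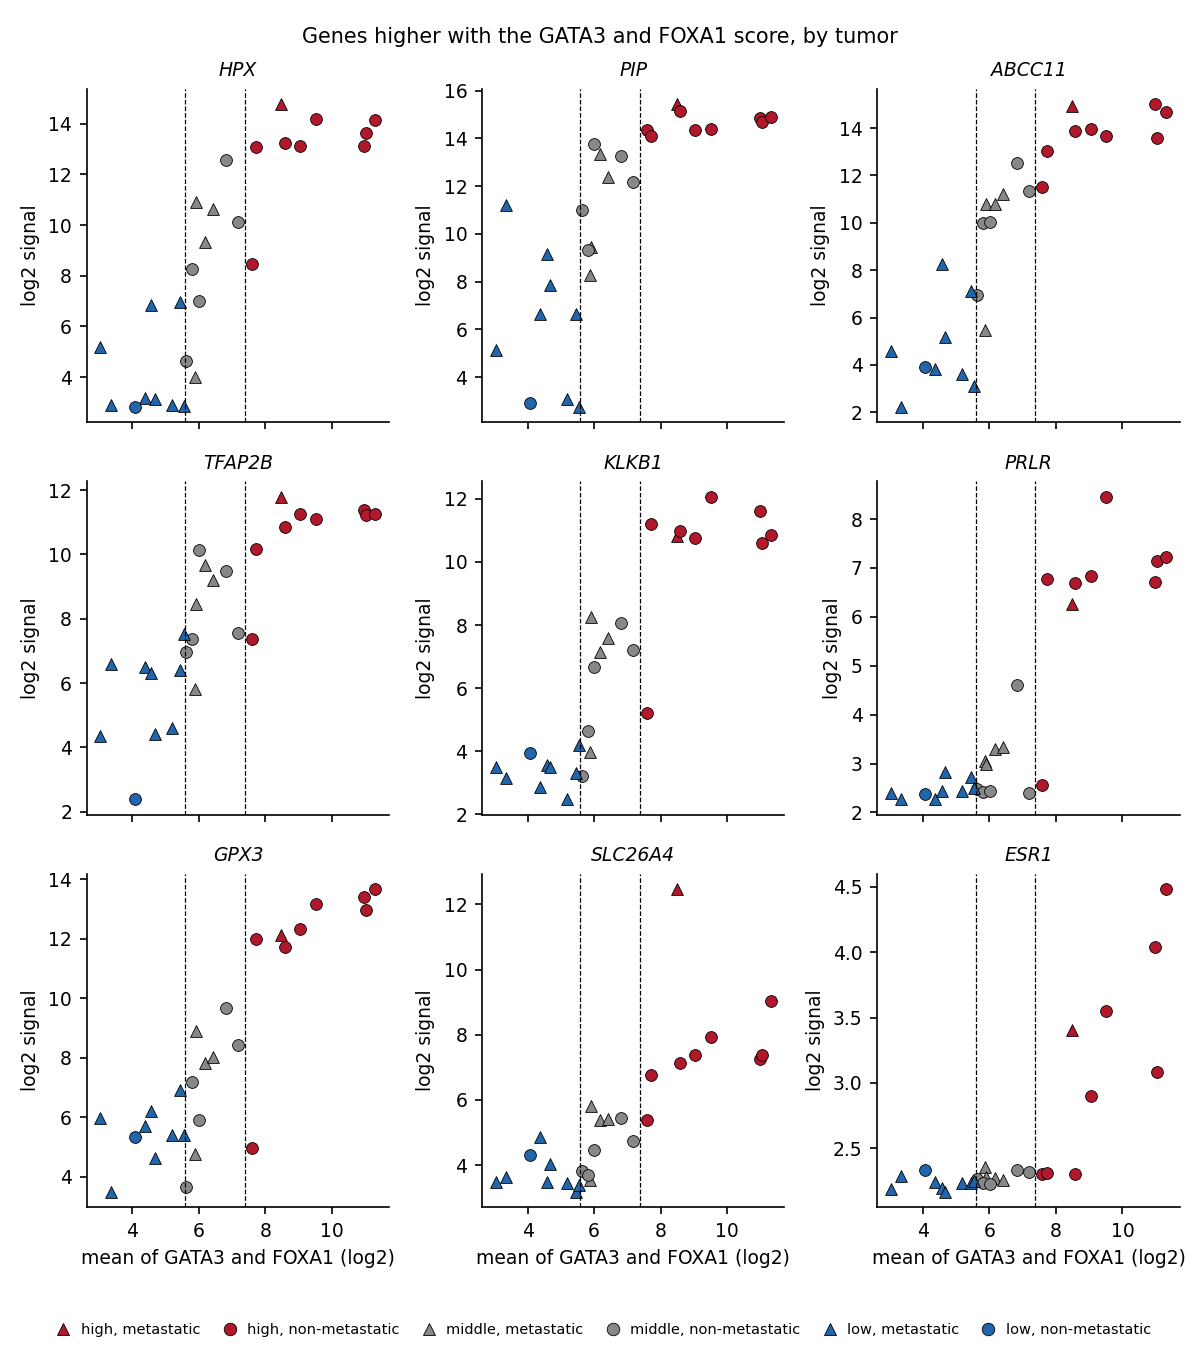
Log2 signal of 9 genes (y axes) against the mean of GATA3 and FOXA1 (x axes, log2) in 27 tumors, with triangles for metastatic and circles for non-metastatic tumors, and dashed lines between the low, middle and high tumors. HPX, PIP, ABCC11, KLKB1 and SLC26A4 show no overlap between the high and the low tumors, and non-metastatic 1, the leftmost high tumor, lies near the middle or low tumors for HPX, KLKB1, PRLR and GPX3.

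Several enzymes stood among the largest differences as well. CES1, a carboxylesterase, measured 10.07 to 15.27 (median 14.66) in the high and 2.29 to 10.45 (median 7.55) in the low tumors (difference 9.46 ± 1.78, adjusted p = 0.0196), and CES2, a second enzyme of this family, 6.10 to 8.41 (median 7.35) against 2.30 to 3.98 (median 2.77) (difference 4.10 ± 0.50, adjusted p = 0.00156). CES2 did not overlap between the groups, and CES1 overlapped only through non-metastatic 1. CES1 was not called without non-metastatic 12 (adjusted p = 0.237), and CES2 was (0.0135). GPX3, the secreted glutathione peroxidase, ranged over 4.97 to 13.68 (median 12.32) in the high and 3.50 to 6.91 (median 5.41) in the low tumors (difference 6.55 ± 1.50, adjusted p = 0.0441). Its call was lost on leaving out any 1 of 13 tumors, but its level rose with the continuous score over 27 tumors (1.36 ± 0.17 per unit of score, SE, adjusted p = 0.000177) and over the 25 tumors other than metastatic 10 and non-metastatic 12 (1.36, adjusted p = 0.00221). GALNT13, which starts O-linked sugar chains, lay between 2.41 and 3.66 in all low tumors and reached 11.27 in the high ones (median 10.16, difference 7.36 ± 1.40, adjusted p = 0.0216), with non-metastatic 1 at 2.67 as the exception. It was not called without metastatic 10 (adjusted p = 0.0519) or without non-metastatic 12 (0.054). LOC611632, a locus without a gene name on the platform, was also among the 12 genes of largest difference (9.93 ± 1.85, adjusted p = 0.0188).

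The genes of the next groups were named after their values were seen, from the 56 genes (39 higher, 17 lower) that passed the main comparison, the continuous score over 27 tumors and a comparison of the 4 highest with the 4 lowest tumors of each lymph node group. These comparisons share tumors, so passing all of them is not independent support. Carriers of ions were among the 56. SLC26A4, the anion exchanger pendrin, measured 5.38 to 12.47 (median 7.37) against 3.18 to 4.87 (median 3.48) without overlap (difference 5.88 ± 0.93, adjusted p = 0.0083), its highest value being that of metastatic 10. SLC12A2, a sodium, potassium and chloride cotransporter, measured 8.26 to 11.59 (median 10.27) against 5.02 to 7.93 (median 7.09) (difference 3.84, adjusted p = 0.0262), also without overlap. ATP1B1, a subunit of the sodium pump, and KCNN2, a potassium channel, differed by 2.34 and 3.13 (adjusted p = 0.0327 and 0.0441). Without metastatic 10 neither of the latter pair was called (0.0574 and 0.192), and without non-metastatic 12 SLC12A2 and ATP1B1 were not (0.197 and 0.141).

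Secreted signals and matrix proteins among the 56 were LRG1, SEMA3C, KITLG, CFI and COL27A1. LRG1, a leucine-rich plasma glycoprotein, measured 7.19 to 11.60 (median 9.54) against 5.53 to 6.60 (median 5.76) (difference 4.51, adjusted p = 0.00943), and SEMA3C, a secreted semaphorin, 7.41 to 11.00 (median 9.88) against 2.42 to 6.77 (median 4.37) (difference 5.26, adjusted p = 0.0165). KITLG, the ligand of the receptor KIT, measured 9.27 to 10.81 (median 10.00) against 5.47 to 7.96 (median 7.31) (difference 3.32, adjusted p = 0.00589), while KIT itself differed by -0.45 ± 0.94 and did not pass the test (adjusted p = 0.901). CFI, a complement inhibitor, and COL27A1, a fibrillar collagen, differed by 2.08 and 5.34 (adjusted p = 0.0153 and 0.0499), the latter lying at the threshold. None of these 5 genes overlapped between the high and the low tumors. KITLG was not called without non-metastatic 12 (adjusted p = 0.0871), COL27A1 was lost on leaving out any 1 of 13 tumors, and the others kept their call whichever tumor was left out. The second brightest probe set of COL27A1 differed by 6.92, and its 3 dimmer ones by -0.43, -0.57 and -0.58. Smaller differences were found for enzymes of amino acid and nucleotide breakdown, ALDH7A1 (1.89), HIBCH (1.64), MCEE (1.36) and PNP (1.00), and for NFE2L2, the transcription factor of the antioxidant response (0.89), at adjusted p of 0.0207 to 0.0355 for PNP, HIBCH, MCEE and NFE2L2 and 0.0188 for ALDH7A1. Without metastatic 10 ALDH7A1, HIBCH, MCEE and NFE2L2 were not called (0.0813, 0.0869, 0.0769 and 0.172), and without non-metastatic 12 MCEE and PNP were not (0.114 and 0.252). The dimmest probe sets of NFE2L2, CES2 and DLGAP5 differed by -0.09, -0.19 and 0.02, against the direction of those used. The dimmer probe sets of HIBCH did not share its direction either, one of them differing by -0.29.

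Hormone receptors were read from 12 measured genes, of which PRLR alone was called (151 higher and 50 lower of all 15113). PRLR, the prolactin receptor, stayed at the low end in all low tumors, 2.27 to 2.82 (median 2.44), and in the middle tumors had a median of 2.99. In the high tumors it measured 2.57 to 8.46 (median 6.76), all but non-metastatic 1 lying above 6 (difference 3.98 ± 0.86, adjusted p = 0.0327). Its level rose with the continuous score, over 27 tumors by 0.81 ± 0.11 per unit (adjusted p = 0.000177) and over the 25 by 0.82 (adjusted p = 0.00354), although the main call was lost without non-metastatic 12 (adjusted p = 0.205). ESR1, the estrogen receptor alpha gene, measured 2.17 to 2.34 (median 2.24) in the low and 2.30 to 4.48 (median 3.08) in the high tumors, where non-metastatic 1, 3 and 14 stayed at the level of the low tumors. The main comparison did not call it (difference 0.98 ± 0.42, adjusted p = 0.279). With the continuous score it rose by 0.25 ± 0.04 per unit over 27 tumors (adjusted p = 0.000615) and by 0.26 over the 25 (adjusted p = 0.00375). Most of these signals lie under the median of the array. PGR, the progesterone receptor, measured 3.31 to 10.53 (median 9.92) against 3.30 to 7.78 (median 6.06) and was not called (difference 2.88 ± 1.43, adjusted p = 0.379), with a slope of 0.80 per unit of score over 27 tumors (adjusted p = 0.0228) and 0.92 over the 25 (adjusted p = 0.0575).

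Of 24 measured transcription factors of luminal cells, TFAP2B and TFAP2A were called (151 higher and 50 lower of all 15113). TFAP2B measured 7.38 to 11.80 (median 11.24) in the high and 2.38 to 7.53 (median 6.30) in the low tumors, the groups touching where non-metastatic 1 fell below metastatic 7 (difference 7.08 ± 0.94, adjusted p = 0.00297). It was 5.96 within the metastatic and 8.20 within the non-metastatic tumors, and no single tumor decided the call. TFAP2A, a paralog, differed by 2.95 ± 0.69 (adjusted p = 0.0467) and was not called with the continuous score (adjusted p = 0.0991) or without non-metastatic 12 (0.503). MYB, a proto-oncogene transcription factor, missed the threshold in the main comparison (2.37 ± 0.58, adjusted p = 0.0549) and passed it with the continuous score (0.51 per unit, adjusted p = 0.0119). XBP1, a regulator of the secretory apparatus, was high in both groups, 12.53 to 13.51 (median 13.02) against 12.40 to 13.46 (median 13.07) (difference 0.20 ± 0.27, adjusted p = 0.853). ELF5, a factor of the milk-forming cells, ranged from 3.64 to 11.05 in the high and from 2.31 to 12.08 in the low tumors, with differences of opposite sign in the metastatic (-3.81) and non-metastatic (5.18) tumors. SPDEF, an epithelial factor of secretory cells, differed by -0.27 ± 0.43 (adjusted p = 0.872) on the probe set used, and its 5 probe sets disagreed, that of largest variance giving 3.06 (adjusted p = 0.034). TRPS1, a repressor related to GATA factors, differed by 1.36 ± 0.62 (adjusted p = 0.317). Of the 23 measured other members of the GATA and FOX families none was called.

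Genes known to respond to estrogen in breast cancer cells numbered 35, of which AGR2 and SLC7A2 were called (151 higher and 50 lower of all 15113). The list median was 0.62 against -0.03 over all genes. AGR2, a disulfide isomerase of the secretory pathway, measured 9.00 to 12.52 (median 10.16) against 4.30 to 11.56 (median 9.93), the groups overlapped, and the lowest value was that of non-metastatic 12 (difference 4.32, adjusted p = 0.0327, 0.418 without that tumor). SLC7A2, a carrier of cationic amino acids, differed by 2.11 (adjusted p = 0.0497), at the threshold, and kept to low signals of at most 5.58. With the continuous score RERG, a RAS-related growth inhibitor, AREG, the growth factor amphiregulin, and MLPH, a melanosome transport protein, were called besides SLC7A2 (0.60, 0.84 and 0.24 per unit, adjusted p = 0.00264, 0.00596 and 0.00991). None of these 3 passed the main comparison (adjusted p = 0.17, 0.446 and 0.824).

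Of the 25 luminal surface genes measured, keratins among them, KRT7 alone was called (151 higher and 50 lower of all 15113). KRT7, a keratin of luminal cells, measured 11.71 to 13.91 (median 13.20) in the high and 4.22 to 13.62 (median 12.53) in the low tumors, the lowest value being that of non-metastatic 12 and the next lowest above 10 (difference 4.92 ± 1.05, adjusted p = 0.0327). Its difference was 8.52 within the non-metastatic and 1.32 within the metastatic tumors, and without non-metastatic 12 the adjusted p was 0.557. KRT18 and KRT8, a pair of keratins that assemble together, differed by 4.19 ± 1.03 and 2.19 ± 0.74 and did not pass the test (adjusted p = 0.0575 and 0.151). Within the metastatic tumors those differences were 0.81 and 0.10. CDH1, the epithelial cadherin, and EPCAM did not pass either (adjusted p = 0.207 and 0.235). Of the 25 genes 22 had a difference above 0 (6352 of all 15113), and the median of the 25 was 2.02. The mean of the list was 7.09 to 9.43 in the high and 5.23 to 9.60 in the low tumors, with medians of 8.64 and 8.45. LTF, the milk protein lactoferrin, and CST6, a protease inhibitor, resembled KRT7, with differences of 12.14 and 10.69 within the non-metastatic but 1.48 and 3.26 within the metastatic tumors. Both lost their call without non-metastatic 12 (adjusted p = 0.401 and 0.352, from 0.0278 and 0.0188). PDZK1IP1, a membrane-associated protein, differed by 6.07 (adjusted p = 0.0428) and was lost on leaving out any 1 of 10 tumors.

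**Figure D3:**
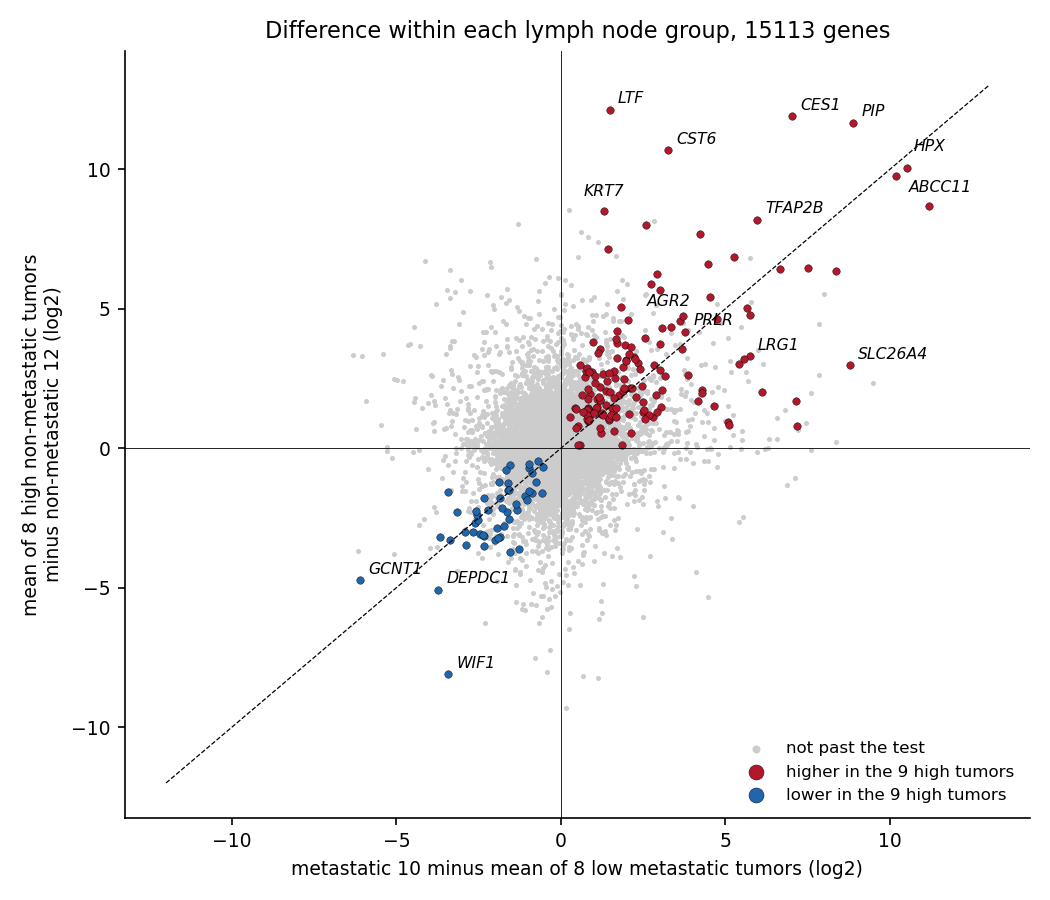
For 15113 genes, the log2 difference of the 8 high non-metastatic tumors from non-metastatic 12 (y axis) against that of metastatic 10 from the 8 low metastatic tumors (x axis), with red and blue points for the 151 genes higher and the 50 lower in the high tumors and grey for the rest. HPX and ABCC11 lie near the dashed line of equal differences, whereas LTF, KRT7 and CST6 lie far above it and SLC26A4 far below it.

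The 21 genes whose differences were over 1.5 times apart comprised 9 with the larger one in the metastatic and 12 with the larger one in the non-metastatic tumors. The 9 were, with the metastatic value first, SLC26A4 (8.78 and 2.98), LRG1 (5.73 and 3.29), EGF (5.43 and 3.02), KCNN2 (4.28 and 1.97), SLC7A2 (2.93 and 1.29), ALDH7A1 (2.49 and 1.29), HIBCH (2.07 and 1.21), NFE2L2 (1.23 and 0.55) and TRIP13 (-1.87 and -1.22). The 12 were KRT7, LTF and CST6 as above and, in the same order, CES1 (7.03 and 11.90), KITLG (2.03 and 4.60), AGR2 (2.73 and 5.90), TFAP2A (1.70 and 4.21), PNP (0.72 and 1.28), MCM10 (-1.72 and -2.78), DLGAP5 (-1.27 and -3.62), AURKA (-1.86 and -3.19) and WIF1 (-3.43 and -8.11). Each of these values has 1 tumor on one side. Whether the 2 differences themselves differ was not tested, and the slopes over the score did not differ between the lymph node groups past the threshold for any of the 58 (limma interaction, smallest adjusted p 0.339).

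The 20 measured milk and alveolar genes included LTF as the only gene called (151 higher and 50 lower of all 15113). Of their differences 18 were above 0 (6352 of all 15113 genes), and the median was 1.43. Non-metastatic 12 had the lowest list mean of the 27 tumors, 5.81. The list mean of metastatic 10, 8.22, lay within the range of the low metastatic tumors, 6.79 to 8.92. XDH, an enzyme of milk fat droplets, PLIN2, a lipid droplet protein, and STAT5A, the transcription factor activated by prolactin, rose with the continuous score over 27 tumors (0.63, 0.41 and 0.38 per unit, adjusted p = 0.0274, 0.0105 and 0.0117) but were not called between the groups of 9 (adjusted p = 0.107, 0.341 and 0.0965). Over the 25 tumors PLIN2 and STAT5A kept an adjusted p of 0.023 and 0.0296, and XDH had 0.136.

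Among 14 genes of the ERBB receptor tyrosine kinases and their ligands EGF alone was called (151 higher and 50 lower of all 15113). EGF, the epidermal growth factor, was at the low end in all low tumors, 2.07 to 2.28 (median 2.16), and measured 2.50 to 7.60 (median 5.84) in the high tumors (difference 4.22 ± 0.84, adjusted p = 0.0262). The groups did not overlap, metastatic 10 had the highest value, and without it the call was lost (adjusted p = 0.0962). The slope over the continuous score was 0.69 ± 0.12 per unit over 27 tumors (adjusted p = 0.0013) and 0.60 over the 25 (adjusted p = 0.0181). The second probe set of EGF, with a lower mean, did not show it (difference 0.04). The receptors ERBB2, ERBB3 and ERBB4 differed by 1.09 ± 0.81, 2.48 ± 1.28 and -0.29 ± 0.28 and did not pass the test (adjusted p = 0.647, 0.404 and 0.774). With the continuous score over 27 tumors ERBB4 was called as falling, and EGF and AREG as rising, while ERBB2 and ERBB3 were not called.

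Lower in the high tumors were genes of cell division. Of 28 measured mitosis genes 8 were called lower and none higher, against 50 and 151 of all 15113 genes. All 28 had a difference below 0 (8761 of all 15113), and their median was -2.43. The high tumors lay below the low tumors without overlap in 18 of the 28, against 117 of all 15113. These ranges are not adjusted for lymph node status, and the study reported cell cycle genes as higher in metastatic tumors. BUB1B, a kinase of the spindle checkpoint, measured 2.65 to 4.96 (median 4.26) in the high and 6.50 to 8.92 (median 7.89) in the low tumors (difference -3.17 ± 0.61, adjusted p = 0.0219), and the groups did not overlap. PLK1, a kinase that drives entry into mitosis, measured 3.25 to 5.66 (median 4.05) against 7.22 to 9.64 (median 7.63) (difference -2.74, adjusted p = 0.0315), and CENPF, a kinetochore protein, 2.97 to 6.05 (median 4.66) against 6.14 to 9.48 (median 7.89) (difference -3.34, adjusted p = 0.0441). TPX2, a spindle assembly factor, fell by 2.74 as well (adjusted p = 0.0278). AURKA, CCNA2, DLGAP5 and KIF23, named after their values were seen, made up the 8 with differences of -2.53, -2.64, -2.45 and -2.40 (adjusted p = 0.0412, 0.0188, 0.0441 and 0.0408). Without non-metastatic 12 none of the 8 was called (adjusted p 0.103 to 0.518), and without metastatic 10 all but CENPF were (0.0653). With the continuous score over 27 tumors 18 of the 28 fell and none rose, against 161 and 445 of all 15113 genes.

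DNA replication genes moved the same way, 5 of 31 being called lower and none higher (50 and 151 of all 15113), at a median of -1.27. ORC6, a subunit of the complex that marks replication origins, measured 3.15 to 6.58 (median 5.27) against 8.23 to 10.39 (median 8.88) (difference -2.93, adjusted p = 0.0274). CDC45, part of the replicative helicase, measured 2.75 to 4.05 (median 3.06) against 4.62 to 7.59 (median 6.99) (difference -2.54, adjusted p = 0.0451), and MCM6, a subunit of the same helicase, 9.51 to 11.32 (median 10.53) against 11.65 to 12.90 (median 11.89) (difference -1.55, adjusted p = 0.0498). MCM10, a replication initiation factor, and RFC4, a subunit of the clamp loader, differed by -2.25 and -1.54 (adjusted p = 0.0334 and 0.0484). The groups overlapped for RFC4 and for none of the other 4. All 5 calls were lost without non-metastatic 12, at adjusted p of 0.25 (ORC6), 0.224 (CDC45), 0.216 (MCM6), 0.219 (RFC4) and 0.33 (MCM10), while the continuous score over 27 tumors called ORC6, CDC45 and MCM6 (0.00922, 0.00603 and 0.00117).

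**Figure D4:**
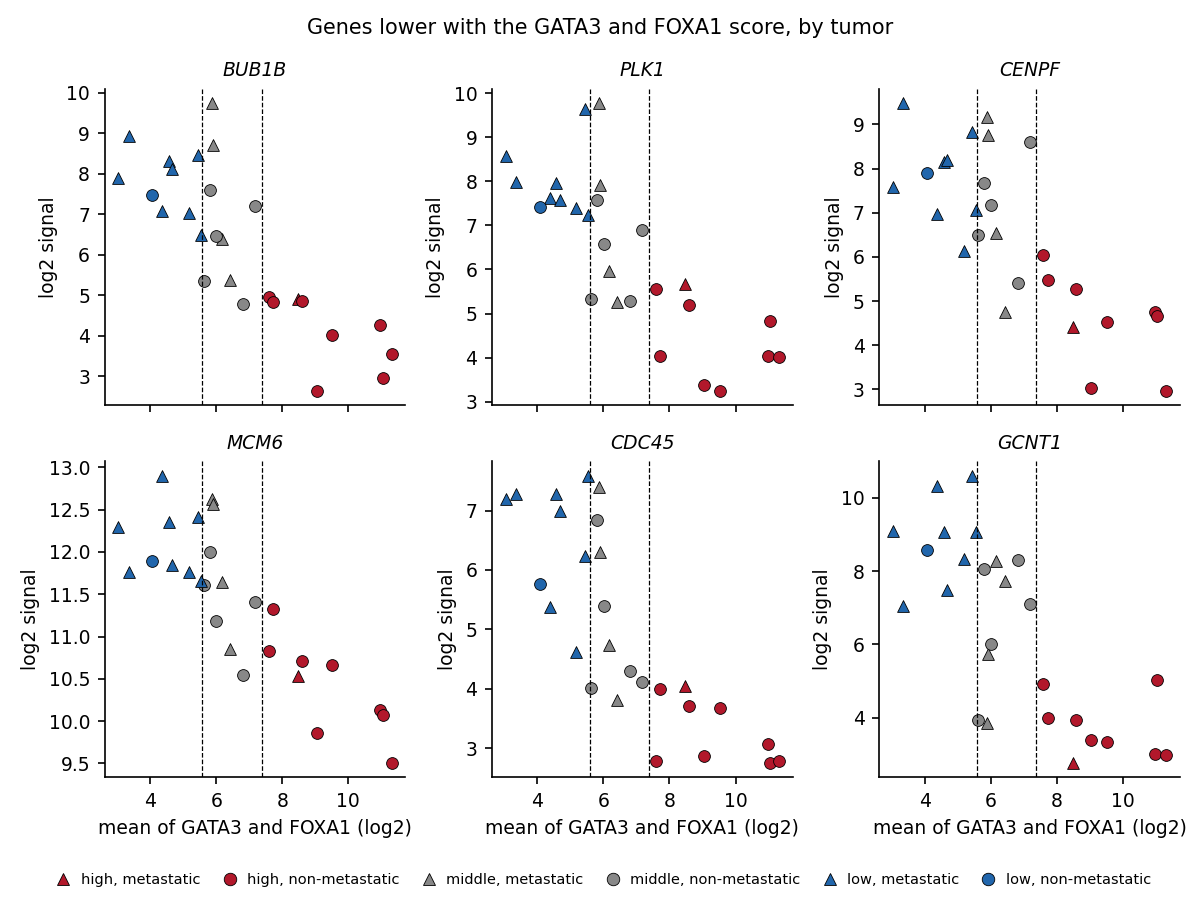
Log2 signal of 6 genes (y axes) against the mean of GATA3 and FOXA1 (x axes, log2) in 27 tumors, with triangles for metastatic and circles for non-metastatic tumors, and dashed lines between the low, middle and high tumors. The 9 high tumors lie below all 9 low tumors in each panel, and the middle tumors spread over both.

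The mean of the mitosis list ranged from 3.97 to 5.92 in the high and from 7.00 to 8.76 in the low tumors. Metastatic 10 was the highest of the high tumors at 5.92, still below the 8 low metastatic tumors, and non-metastatic 12 lay at 7.23 against at most 5.59 in the 8 high non-metastatic tumors. In the middle tumors the mean ran from 5.58 to 9.13. With the mitosis mean as a further covariate 1 gene was called higher and 0 lower (limma, 503 and 235 at an unadjusted p under 0.05). The estimates in that fit were 11.01 for HPX, 10.24 for ABCC11, 13.71 for PIP, 6.44 for KLKB1, 5.14 for LRG1 and -5.10 for GCNT1, near or above those without the covariate in size. Those of GPX3, SEMA3C and PDZK1IP1 were smaller than without it, at 4.63, 3.26 and 2.49. Those of BUB1B, PLK1 and CENPF, themselves members of the list, were -0.46, -0.84 and 0.11. None of these genes was called in that fit (limma, adjusted p = 0.156 for HPX, 0.146 for ABCC11 and 0.101 for PIP). The mitosis mean does not overlap between the high and the low tumors, so the fit cannot tell the score groups well apart from it.

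DEPDC1 and its relative DEPDC1B were among the 12 largest falls. DEPDC1 measured 2.54 to 4.80 (median 2.68) against 5.42 to 8.72 (median 7.10) (difference -4.40 ± 0.62, adjusted p = 0.00454) and kept its call whichever tumor was left out. DEPDC1B was at the low end in all high tumors, 2.12 to 2.42 (median 2.23), and measured 3.52 to 7.73 (median 6.67) in the low ones (difference -3.43, adjusted p = 0.0499). FBXO5, an inhibitor of the anaphase-promoting complex, ESCO2, which joins sister chromatids, and DCK, a kinase of the nucleoside salvage pathway, fell by 2.76, 2.84 and 2.96 (adjusted p = 0.0188, 0.0373 and 0.0315), and without non-metastatic 12 none of the 3 was called (0.148, 0.231 and 0.174). DEPDC1B was lost on leaving out any 1 of 14 tumors and ESCO2 any 1 of 9. MYBL2, a transcription factor of the cell cycle, TRIP13, a checkpoint ATPase, and HDAC2, a histone deacetylase, were among the 17 lower genes common to the 3 comparisons, with differences of -2.72, -1.54 and -0.84 (adjusted p = 0.0188, 0.0278 and 0.037). Without metastatic 10 their adjusted p was 0.0513, 0.0869 and 0.0951.

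GCNT1 and WIF1 showed the largest falls of all genes called. GCNT1, which branches O-linked sugar chains, measured 2.77 to 5.03 (median 3.40) in the high and 7.06 to 10.60 (median 9.06) in the low tumors without overlap (difference -5.42 ± 0.75, adjusted p = 0.00438). Its difference was -6.11 within the metastatic and -4.74 within the non-metastatic tumors, and it was called whichever tumor was left out. WIF1, a secreted inhibitor of Wnt ligands, measured 3.08 to 7.65 (median 4.50) against 4.51 to 13.18 (median 7.55) (difference -5.77 ± 1.24, adjusted p = 0.0327), the highest value being that of non-metastatic 12, without which it was not called (adjusted p = 0.44). Its slope with the continuous score did not pass either (adjusted p = 0.157).

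Lists of other cell types and programs held no called gene. Of the 15 smooth muscle and myoepithelial genes none passed, and MYH11, the smooth muscle myosin, measured 8.78 to 13.89 (median 12.98) against 4.03 to 11.02 (median 7.68) with a fitted difference of 3.68 ± 1.35 (adjusted p = 0.193), of which 0.51 lay within the metastatic and 6.85 within the non-metastatic tumors. The mean of that list was 7.67 to 9.65 (median 9.24) in the high and 7.03 to 8.66 (median 7.92) in the low tumors. All high tumors but metastatic 10 lay above all low tumors in it. With the list mean as a covariate 143 genes were higher and 21 lower. ACTA2, the smooth muscle actin, and TP63, the basal cell factor, did not pass (adjusted p = 0.483 and 0.883), and TP63 kept to signals of at most 2.60 in the low and 4.17 in the high tumors. KRT5, KRT14, KRT19 and MKI67 had no probe set under a single symbol. None of the 19 basal epithelial, 18 fibroblast and matrix, 13 cartilage, 15 endothelial, 14 adipocyte, 17 T and NK cell, 10 B and plasma cell or 18 macrophage and neutrophil genes was called. Their list medians ran from -1.79 (T and NK cells) to 0.16 (basal epithelium). VIM, the mesenchymal intermediate filament, differed by -0.21 ± 0.45 (adjusted p = 0.901), and none of 16 mesenchymal transition, 15 Notch pathway, 17 interferon response, 14 cornified epithelium, 18 motile cilia, 15 striated muscle, 27 endoplasmic reticulum and secretion or 14 housekeeping genes was called. The housekeeping mean was 10.37 to 10.84 (median 10.56) in the high and 10.78 to 11.07 (median 10.98) in the low tumors. Over the 296 genes of the 18 lists without a call, 10 were higher and 30 lower at an unadjusted p under 0.05 (limma), against 1211 and 980 of all 15113.

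**Figure D5:**
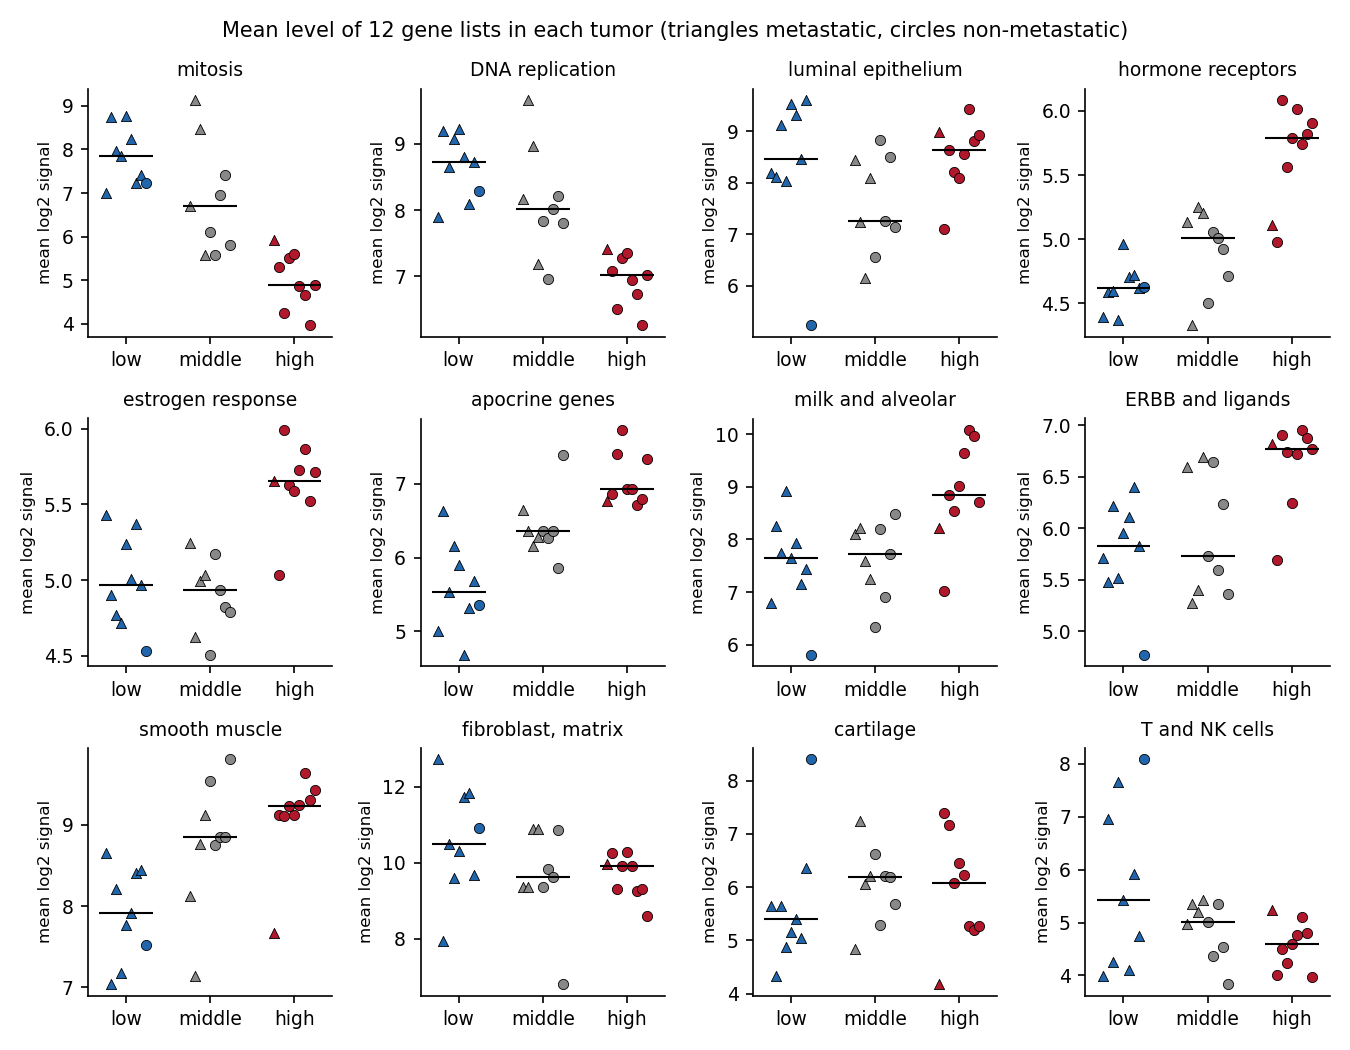
Mean log2 signal of 12 gene lists (y axes) in each low, middle and high tumor (x axes, colors), with triangles for metastatic and circles for non-metastatic tumors and horizontal bars for the median of each group. The mitosis and DNA replication means of the high tumors lie below those of all low tumors. The luminal epithelium means of the high tumors run from 7.09 to 9.43 and those of the low tumors from 8.03 to 9.60 apart from non-metastatic 12 at 5.23, which is also the highest in the cartilage and the T and NK cell panels.

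The relation to the score was also read inside each lymph node group. Over the 14 non-metastatic tumors alone 370 genes rose and 106 fell with the score, including 64 of the 151 and 23 of the 50, and over the 13 metastatic tumors alone 3 rose and 1 fell, none of them among the 201. The difference between the 2 slopes passed for 0 of 15113 genes (limma interaction, smallest adjusted p 0.1, 2154 genes at an unadjusted p under 0.05), so the counts are not shown to reflect unlike relations. The metastatic tumors span a narrower score, with all but metastatic 10 at 6.42 or less. The comparison of the 4 highest with the 4 lowest tumors of each lymph node group rests less on single tumors. Most of its tumors, metastatic 10 and non-metastatic 12 among them, stood on the same side in the main comparison. Kept directions are thus largely built in. The within-group comparison called 171 genes higher and 106 lower, of which 40 and 17 were among the 151 and 50, and the estimates of all 201 kept their direction. HPX, ABCC11 and TFAP2B differed by 7.49, 6.86 and 4.19 there (adjusted p = 0.00307, 0.00846 and 0.0308), KLKB1 and GPX3 by 5.93 and 5.83 (0.000321 and 0.00846), and PIP, KRT7 and LTF by 5.04, 1.82 and 2.21, which did not pass (0.0795, 0.525 and 0.544). HPX, ABCC11, CES1, GALNT13, TFAP2B, KLKB1, GPX3, SLC26A4, SEMA3C, SLC12A2, KITLG, KCNN2, LRG1, EGF and PRLR were called in the main comparison, over 27 tumors and over the 25 tumors, and so were BUB1B, CENPF, MCM6, DLGAP5, KIF23, TRIP13 and HDAC2 on the lower side. Calls near the threshold were lost in the main comparison on leaving out any 1 of several tumors, namely 15 of the 18 for SLC7A2, 14 for TFAP2A, 13 for CDC45 and RFC4, 12 for AZGP1 and MCM6, 11 for KCNN2, 10 for CENPF, 9 for AURKA, 8 for KIF23 and DLGAP5 and 7 for HDAC2.

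Of the other measures of the tumors none passed after adjustment. The dogs of the high tumors were 10.8 ± 1.09 years old and those of the low tumors 13.6 ± 2.7 (SD, n = 9 each, exact permutation test, two-sided, p = 0.018, adjusted p = 0.0631 over the 7 measures). The tumors measured 4.67 ± 2.35 cm against 2.61 ± 1.93 cm (exact permutation test, p = 0.0733, adjusted p = 0.171). With age and size as covariates 68 genes were higher and 35 lower. Grade II and III stood at 4 and 5 among the high and 5 and 4 among the low tumors (Fisher's exact test, p = 1), yet grade as a covariate left 43 higher and 12 lower. The 3' to 5' signal difference of the GAPDH control, a sign of RNA integrity, was 1.47 ± 0.35 against 1.76 ± 0.36 on the log2 scale (exact permutation test, p = 0.0991), that of actin 4.44 against 4.13 (p = 0.357), and the upper quartile of the array 7.85 against 7.88 (p = 0.538). The GAPDH difference was highest of all tumors in non-metastatic 12, at 2.29, the only non-metastatic tumor of the low group. The other non-metastatic tumors ran from 0.75 to 2.04, and the next highest value was 2.24, in metastatic 11. With the GAPDH difference as a covariate 166 genes were higher and 34 lower. Sample names ending in T, a form whose meaning the labels do not give, belonged to 1 high and 6 low tumors, all of them metastatic. No non-metastatic tumor had this ending, so beside lymph node status it can be estimated among metastatic tumors only. The counts with the ending as a covariate were 155 and 65. The part of these measures in the results was not tested beyond these counts.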

How the data were processed

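The authors hybridized RNA of 27 canine simple mammary carcinomas to Affymetrix Canine Genome 2.0 arrays, 1 per tumor, and deposited log2 signals made in Partek Genomic Suite by its gcRMA workflow (median polish, RMA background correction, quantile normalization). The log2 values were used as deposited, though the upper quartiles of the 27 arrays still ran from 7.52 to 8.00. The arrays hold 43035 probe sets including 175 controls, which were dropped, and 15115 genes with a single symbol on the platform were each read from the probe set of highest mean. GEO's platform annotation can be old. Between the 9 highest and 9 lowest tumors limma 3.58.1 under R 4.3.3 was run (lmFit and eBayes over 42860 probe sets, lymph node status as covariate) with Benjamini-Hochberg adjustment over 15113 genes, at an adjusted p of 0.05, where a positive log2 difference is higher in the high tumors. The score was also fitted as a continuous value. Grade was taken from the study's table where a label differed. Named genes were the 12 of largest difference in each direction, up to 4 called members per gene list in the direction of more calls and 2 in the other, and fixed luminal, basal and receptor genes. Genes named after their values were seen are given as such. The tumors, lists and genes were chosen with earlier results of these data known. Tests of tumor measures were exact (scipy 1.17.1), and the fit was tested on simulated data. The number of arrays limits the precision. Alternatives covered covariates, scaling, probe sets, array weights, the score and single tumors. Figures used matplotlib 3.10.9 (Python 3.11.15). Promoter and protein sequences were not used here.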

Additional observations from a re-analysis of the deposited data

Results flagged for a closer look

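Of 194 combinations of a gene or tumor measure with a group of 9 tumors, 30 (15.5%) held a tumor far from the other 8. Such a tumor was past Dixon's critical value for the gap to the nearest tumor over the group's range. The same tumors recurred, with 12 of the 30 from non-metastatic 1. Chance sets apart about 1 in 20 groups, and genes that move together are set apart together. In the high group non-metastatic 1, the tumor of lowest score there, was the lowest for 12 genes on the log2 scale: HPX at 8.47, CES1 at 10.07, TFAP2B at 7.38, KLKB1 at 5.20, GPX3 at 4.97, SEMA3C at 7.41, GALNT13 at 2.67, PRLR at 2.57, XDH at 3.90, PGR at 3.31, ANPEP at 4.35 and PLIN2 at 8.90. Metastatic 10 was the lowest high tumor for the muscle myosin MYH11 (8.78) and for TGIF2 (3.06), and the highest for HIBCH (11.71) and the division genes MCM10 (4.70), TPX2 (5.01) and ESCO2 (4.81). Other high tumors set apart were non-metastatic 9 with the lowest LOC611632 (5.75), non-metastatic 6 with the highest TP63 (4.17) and non-metastatic 3 with the highest DEPDC1 (4.80) and the oldest dog (13 years).

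In the low group non-metastatic 12 was the lowest for LTF (2.63), KRT7 (4.22), KRT18 (5.69) and the upper quartile of its array (7.57), and the highest for KCNN2 (4.16) and tumor size (7 cm). Metastatic 8 had the highest GALNT13 (3.66) and metastatic 13 the highest ORC6 (10.39) of the low tumors.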

How the results depend on the processing

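The comparison rested on few tumors, and its counts moved more than the directions of the genes called did. These genes were called on the same tumors that most alternatives reuse, which favors kept directions, so this is no separate evidence. Leaving out 1 tumor at a time gave 90 to 599 genes higher (151 with all 18 tumors) and 26 to 1282 lower (50). The tumors whose absence moved a count by over 1.5 times were metastatic 10 (599 and 1282), non-metastatic 5 (90 and 26), and non-metastatic 6 and 9 (30 lower each). Without lymph node status 826 genes were higher and 1072 lower, with all 27 tumors as 3 groups 372 and 105, and with the continuous score over 27 tumors 445 and 161, over the non-metastatic tumors 370 and 106 and over the metastatic tumors 3 and 1 (881 and 624 at an unadjusted p under 0.05). The continuous score over 25 tumors, chosen after seeing the data, gave 208 and 62. Probe sets above the median signal gave 253 and 90, since fewer genes were tested. Array weights left 0 and 0 (219 and 124 at an unadjusted p under 0.05) and the mitosis mean as a covariate 1 and 0. Fewer genes were higher with age and tumor size (68) or grade (43) as covariates. Fewer were lower with grade (12), the upper quartile (15), the smooth muscle mean (21), the ranking by FOXA1 alone (17) or adjustment over all probe sets (33), and more with the ranking by GATA3 alone (183) or within lymph node groups (106). Renormalization, centring, the probe set of largest variance, trended variances, the GAPDH difference and the name ending moved neither count by over 1.5 times. Except as stated, the cause was not tested.

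Of 58 named genes called, 38 lost the call without non-metastatic 12, 20 without metastatic 10, 42 with the ranking by GATA3 and 35 by FOXA1 alone, 40 with the upper quartile, 36 with grade, 31 with age and size, 28 with the smooth muscle mean, 32 with the slope over 25 tumors, and all 58 with array weights, the mitosis mean or the slope over metastatic tumors. Of these 58, 2 changed direction in any alternative: CENPF with the mitosis mean (0.11) and HIBCH with the probe set of largest variance (-0.29). Among named genes not called, directions turned with the slope over metastatic tumors for KRT18 (-0.21), ERBB3 (-0.19), KRT8 (-0.0562), TJP3 (-0.0696), EPCAM (-0.0503), ERBB2 (-0.23), ELF5 (-0.48) and VIM (0.0105). The mitosis mean turned ANPEP (-0.63), MLPH (-0.0796), XBP1 (-0.63) and KIT (0.61). Without metastatic 10 XBP1, VIM, SPDEF, KIT and TGIF2 turned, and without non-metastatic 12 ERBB3 and ELF5, the estimates with 1 tumor left out ranging from -0.11 to 0.50 for XBP1, -0.69 to 0.26 for VIM, -0.54 to 0.00497 for SPDEF, -1.31 to 0.42 for KIT, -3.57 to 0.68 for TGIF2, -0.68 to 5.65 for ERBB3 and -3.81 to 5.18 for ELF5. Age and size turned ELF5 (-0.11), TP63 (-0.00642) and SPDEF (0.10), and the upper quartile ELF5 (-0.90) and ERBB4 (0.12). TP63 also turned with the slopes over 27 (-0.0133), 25 (-0.0426) and the non-metastatic tumors (-0.0713) and with GATA3 (-0.0440) or FOXA1 (-0.0387) alone. VIM turned without the covariate (0.55), with 3 groups (0.10), with GATA3 alone (0.00421), with the within-group comparison (0.19) and with the slope over 25 tumors (0.0271). ERBB4 turned without the covariate (0.57), and SPDEF passed the test with the probe set of largest variance (3.06, adjusted p = 0.034).

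No paired analysis was possible because the replicate numbers follow the order of deposition and pair no tumors. With 9 tumors a group, signals under the array median of 3.66 limit what FOXA1, ESR1, EGF and PRLR can show in the low tumors.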

Other observations

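Over the 13 metastatic tumors alone SDHD, a subunit of succinate dehydrogenase, TM2D2 and TRNAU1AP, a factor of selenoprotein synthesis, rose with the score, and TGIF2, a transcriptional repressor, fell (limma, adjusted p under 0.05). Between the groups of 9 they differed by 0.87, 1.02, 0.71 and -1.44 on the log2 scale and did not pass the test (adjusted p = 0.116, 0.0568, 0.227 and 0.419). They were chosen after their values were seen.

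FOXA2 and FOXK2, forkhead genes named after their values were seen, fell with the continuous score over 27 tumors. FOXA2, a relative of FOXA1, had a slope of -0.09 per unit of score (adjusted p = 0.0203) at signals of 2.53 to 3.35 (median 2.67) in the low and 2.50 to 2.68 (median 2.61) in the high tumors, both at the low end of the array. FOXK2 had a slope of -0.22 (adjusted p = 0.00415), with 7.07 to 8.17 (median 7.42) in the high and 7.62 to 9.03 (median 8.24) in the low tumors. CREB3L4, a membrane-bound transcription factor of secretory cells, rose by 0.50 per unit (adjusted p = 0.00159) and ANPEP and TJP3, a surface peptidase and a tight junction protein, by 0.93 and 0.41 (adjusted p = 0.00815 and 0.0202). None of these 5 genes passed the comparison of the groups of 9, where their adjusted p ran from 0.0555 to 0.495. LACTB2, an enzyme of the mitochondrion, passed it (1.46 ± 0.21, adjusted p = 0.00502), whichever tumor was left out.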
